A study of Mus musculus with 64 samples.

Results

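The erythroid program genes are 36 genes that a developing red cell uses to make globin, take up iron and build its membrane. They were taken as a list of symbols, with no threshold on a measured value. The list was chosen with earlier results of these data known, so what follows describes the list and is not an independent test of it. By symbol, 34 of the 36 were found among the 23338 genes that each count file lists. Sptb (beta spectrin) was listed under its older symbol Spnb1 and is described beside the members, and Ahsp was not found under any name. RNA-seq read counts were examined in 64 libraries of C57BL/6 mice (C57BL/6 J in the methods of the study). Of these, 12 were single eight-cell embryos of naturally mated females, taken at 2.5 dpc (days post-coital) (6 male, 6 female), and 4 were ES lines grown in 2i medium, which blocks differentiation signals (2 male, 2 female). A further 24 were livers of fetuses in late gestation (12 male, 12 female), and 24 were livers of adults aged 15 to 20 weeks (12 male, 12 female). No animal carried an engineered allele or received a treatment according to the labels. Each ES line came from an eight-cell embryo, so a line stands for 1 embryo expanded in culture. The embryo libraries were made by a single-cell protocol with PCR amplification, while ES and liver libraries were made with a stranded total RNA kit, so for the embryos protocol cannot be told apart from stage, and no test was run against them.

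A fetal liver had 5145371 to 8499603 reads on genes, with 1567583 to 4757610 per adult liver, 9857929 to 10386931 per ES line and 4659656 to 7725432 per embryo. Levels are given as CPM, counts per 1000000 reads on genes after TMM scaling over the 64 libraries, and differences as log2 ratios. A level of 3 reads corresponded to 0.353 to 0.583 CPM in fetal liver and 0.631 to 1.91 CPM in adult liver before scaling. The tissue labels were checked against marker genes. Albumin mRNA (Alb) was at 13794 to 18778 CPM in fetal livers, the 5 pluripotency markers summed to 1723 to 1949 CPM in ES lines, and the same 5 summed to at most 2.15 CPM in fetal liver and 3.46 CPM in adult liver. In GENCODE, 7 members (Lmo2, Slc25a37, Ank1, Add2, Icam4, Tmcc2, Xpo7) overlap a gene on the other strand and 5 (Slc25a37, Ank1, Add2, Kel, Xpo7) a gene on the same strand. Whether counting used strand is not given in the sources used here, so reads in those overlaps are uncertain.

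During late gestation the liver is the main site where mice make red cells, a task that passes to bone marrow and spleen after birth. Erythropoietin acts through its receptor on early erythroid cells, and the transcription factors GATA1, KLF1 and TAL1 with LMO2 switch on globin, heme and membrane genes. As the cells mature they stop dividing, expel the nucleus and keep a cytoplasm filled with hemoglobin. Globin genes lie in an alpha cluster and a beta cluster, in each of which embryonic genes (Hba-x, Hbb-y, Hbb-bh1) are used first, in cells born in the yolk sac, and adult genes (Hba-a1, Hba-a2 and the adult beta genes) take over in fetal liver.

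The adult globins require their sequences to be read first, because the 4 adult globin members were almost without reads. Coding sequences were taken from GENCODE transcripts on GRCm38 (mm10), the build used by the authors. Hba-a1 (chr11:32283511-32284465) and Hba-a2 (chr11:32296489-32297298), the adult alpha globin genes on the plus strand, differed at 1 of 429 coding bases and shared an identical run of 380 bases. Embryonic Hba-x (chr11:32276400-32278116), which encodes zeta globin, was identical to Hba-a1 at 62.0% of its coding bases. Bases 292 to 381 of each coding sequence, counted from the start codon, are shown, with capitals at the bases that differ from Hba-a1.
Hba-a1: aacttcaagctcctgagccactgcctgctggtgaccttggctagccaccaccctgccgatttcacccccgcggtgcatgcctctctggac
Hba-a2: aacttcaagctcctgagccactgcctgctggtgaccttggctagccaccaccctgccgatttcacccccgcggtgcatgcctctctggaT
Hba-x: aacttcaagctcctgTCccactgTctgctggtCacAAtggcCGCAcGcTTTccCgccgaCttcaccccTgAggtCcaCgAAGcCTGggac
Across these 90 bases Hba-a2 departed from Hba-a1 at 1 base and Hba-x at 26.

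The symbols Hbb-b1 and Hbb-b2 have no entry in GENCODE on this build, where the adult beta globin genes are Hbb-bs and Hbb-bt. The files list neither of these names, but RefSeq gives Beta-s, which the files do list, as a synonym of Hbb-bs (chr7:103826534-103828096, minus strand). Hbb-bs and Hbb-bt differed at 1 of 444 coding bases, with an identical run of 416 bases, while embryonic Hbb-y and Hbb-bh1 were identical to Hbb-bs at 74.3% and 74.1% of bases. Bases 328 to 417 are shown, with capitals at the bases that differ from Hbb-bs.
Hbb-bs: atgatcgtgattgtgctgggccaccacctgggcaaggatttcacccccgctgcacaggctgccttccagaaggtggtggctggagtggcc
Hbb-bt: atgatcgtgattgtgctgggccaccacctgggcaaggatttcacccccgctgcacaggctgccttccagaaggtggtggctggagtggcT
Hbb-y: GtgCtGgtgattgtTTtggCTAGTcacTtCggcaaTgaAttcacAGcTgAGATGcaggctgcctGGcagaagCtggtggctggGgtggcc
Hbb-bh1: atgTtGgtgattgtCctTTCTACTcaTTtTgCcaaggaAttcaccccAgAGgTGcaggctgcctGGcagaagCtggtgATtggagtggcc
Hbb-bt departed from Hbb-bs at 1 of the 90 bases, Hbb-y at 26 and Hbb-bh1 at 25.

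In the 24 fetal livers together, Hba-a1 was given 1 read, Hba-a2 33 reads, Hbb-b1 3 reads and Hbb-b2 2 reads. None of the 4 had a read in any of the 24 adult livers, 4 ES lines or 12 embryos. Their counts can therefore not be read as levels of adult globin mRNA. The counter set aside reads that aligned to more than 1 place, and its files list 30.3 to 39.9 such records per 100 uniquely aligned reads for a fetal liver and 48.6 to 157 for an adult one. How many of these came from globin genes was not tested. Beta-s, by contrast, was at 1159 to 1883 CPM in fetal livers (median 1583) and 94.3 to 258 CPM in adult livers (median 161), with no overlap, and had no read in ES lines or embryos. Its log2 ratio of fetal to adult liver was 3.16 (adjusted p = 8.67e-35, edgeR quasi-likelihood test). Reads that Beta-s shares with the nearly identical Hbb-bt could have been set aside too, to a different extent in fetal and adult livers. The levels and ratios of Beta-s, here and below, are therefore uncertain as measures of adult globin mRNA. The 4 adult globin members did not pass the filter on low counts, and in the comparisons below they enter only counts of members without reads.

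Promoters are shown for the 3 main erythroid factors and for the globins Hba-x, Hba-a1, Hba-a2 and Hbb-y. Whether these promoters have a part in the differences between the livers was not tested. The 250 bases before each start are from the RefSeq promoter table (GRCm38.p6), written 5′ to 3′ along the gene, and no entry was found there for Hbb-bh1. Capitals mark AGATAA or TGATAA, letters to which GATA factors can bind, and CCACACCC or CCNCNCCC, letters to which KLF1 can bind, on either strand. CCACACCC is contained in CCNCNCCC.
Hba-x (chr11:32276350-32276599, plus strand): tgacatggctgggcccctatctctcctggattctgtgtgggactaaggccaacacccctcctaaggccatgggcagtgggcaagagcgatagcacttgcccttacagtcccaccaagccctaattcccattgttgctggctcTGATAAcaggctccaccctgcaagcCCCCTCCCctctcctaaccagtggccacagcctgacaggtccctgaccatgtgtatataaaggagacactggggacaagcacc
Hba-a1 (chr11:32283422-32283671, plus strand): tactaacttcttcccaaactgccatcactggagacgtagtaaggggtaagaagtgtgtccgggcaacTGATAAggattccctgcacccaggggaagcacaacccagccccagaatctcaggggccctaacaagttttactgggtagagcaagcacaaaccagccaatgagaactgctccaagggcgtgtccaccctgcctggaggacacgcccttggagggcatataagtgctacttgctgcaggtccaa
Hba-a2 (chr11:32296242-32296491, plus strand): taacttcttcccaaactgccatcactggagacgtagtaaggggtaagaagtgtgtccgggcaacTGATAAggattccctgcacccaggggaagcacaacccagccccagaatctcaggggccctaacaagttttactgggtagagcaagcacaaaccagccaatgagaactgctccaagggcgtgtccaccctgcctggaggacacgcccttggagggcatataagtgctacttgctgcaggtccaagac
Hbb-y (chr7:103853208-103853457, minus strand): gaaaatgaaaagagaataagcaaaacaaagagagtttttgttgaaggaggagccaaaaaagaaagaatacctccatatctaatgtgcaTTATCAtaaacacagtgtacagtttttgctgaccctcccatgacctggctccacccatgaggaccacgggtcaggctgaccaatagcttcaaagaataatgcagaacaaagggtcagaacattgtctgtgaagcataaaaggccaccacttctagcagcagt
Gata1 (chrX:7967911-7968160, minus strand): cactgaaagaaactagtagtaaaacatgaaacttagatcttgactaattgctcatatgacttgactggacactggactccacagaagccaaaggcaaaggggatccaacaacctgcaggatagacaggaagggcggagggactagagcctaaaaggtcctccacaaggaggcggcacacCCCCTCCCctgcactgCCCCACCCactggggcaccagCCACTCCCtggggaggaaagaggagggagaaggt
Klf1 (chr8:84901732-84901981, plus strand): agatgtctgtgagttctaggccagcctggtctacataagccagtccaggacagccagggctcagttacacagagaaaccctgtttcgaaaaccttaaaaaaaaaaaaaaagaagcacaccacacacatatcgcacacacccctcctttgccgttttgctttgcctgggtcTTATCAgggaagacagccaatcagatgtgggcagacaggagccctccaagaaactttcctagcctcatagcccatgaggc
Tal1 (chr4:115056176-115056425, plus strand): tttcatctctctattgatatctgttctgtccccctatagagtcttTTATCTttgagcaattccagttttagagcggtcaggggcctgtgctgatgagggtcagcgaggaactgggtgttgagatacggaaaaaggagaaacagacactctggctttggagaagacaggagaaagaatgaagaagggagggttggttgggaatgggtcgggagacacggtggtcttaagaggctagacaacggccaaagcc
Tal1 (chr4:115057561-115057810, plus strand): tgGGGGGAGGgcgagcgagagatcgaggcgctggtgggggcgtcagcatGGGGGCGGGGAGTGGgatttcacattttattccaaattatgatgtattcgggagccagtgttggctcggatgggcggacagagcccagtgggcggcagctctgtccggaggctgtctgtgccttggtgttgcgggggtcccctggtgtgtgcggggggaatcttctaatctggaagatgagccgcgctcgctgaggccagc
Over the full 300 bases of the table, which run from 250 before to 50 after the start, AGATAA or TGATAA on either strand was found in 17 of 29 promoters of 24 members, and in 18.6% of all 32851 promoters. CCNCNCCC was found in 17 of the 29 and in 49.5% of all, and CCACACCC in 0 of the 29 and in 3.56% of all. The Beta-s promoter held 1 CCACACCC and 1 AGATAA. Such matches describe letters in this window only.

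The members stood far higher in fetal than in adult liver. All 30 members with enough reads to be tested were called higher in fetal than in adult liver (adjusted p under 0.05 and a log2 ratio over 1), against 23.6% of the 12875 genes tested. In adult livers alone only 7 members passed the filter on low counts. The others entered this test through their fetal reads and could hardly have been called lower, so the count of 30 is not independent support. The median log2 ratio of the 30 was 8.06, or 7.38 with the 8 members that had no adult read set at a lower bound, while the median of all genes tested was 0.05. For the same 30, out of 34 listed members, every fetal liver lay above every adult liver, which held for 14.1% of all 23338 listed genes. The members took 1.13% to 1.71% of the reads on genes of a fetal liver and 0.0174% to 0.0261% of those of an adult liver. In whole tissue, fewer cells of a type and less RNA per cell cannot be told apart. Of other marker lists, all 10 neutrophil genes, 8 of 8 tested megakaryocyte genes, 8 of 8 B cell genes and 6 of 6 proliferation genes were also called higher in fetal liver, while 6 of 12 hepatocyte genes were called lower and 1 higher. Of 9 macrophage genes 0 were called higher and 2 lower, and of 6 endothelial genes 1 was called higher. Of all 12875 genes tested, 3034 were called higher and 2512 lower. In adult livers alone 0 neutrophil, 0 B cell, 1 megakaryocyte and 4 proliferation genes passed the filter. The other tested genes of these 4 lists were thus also tested through their fetal reads. The neutrophil list summed to 1737 to 3656 CPM in fetal livers and 0.485 to 10.8 CPM in adult livers, the proliferation list to 3663 to 5666 and 17 to 67.7 CPM, and the hepatocyte list to 59226 to 79375 and 82748 to 110114 CPM. Their part in the result was not tested.

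**Figure D1:**
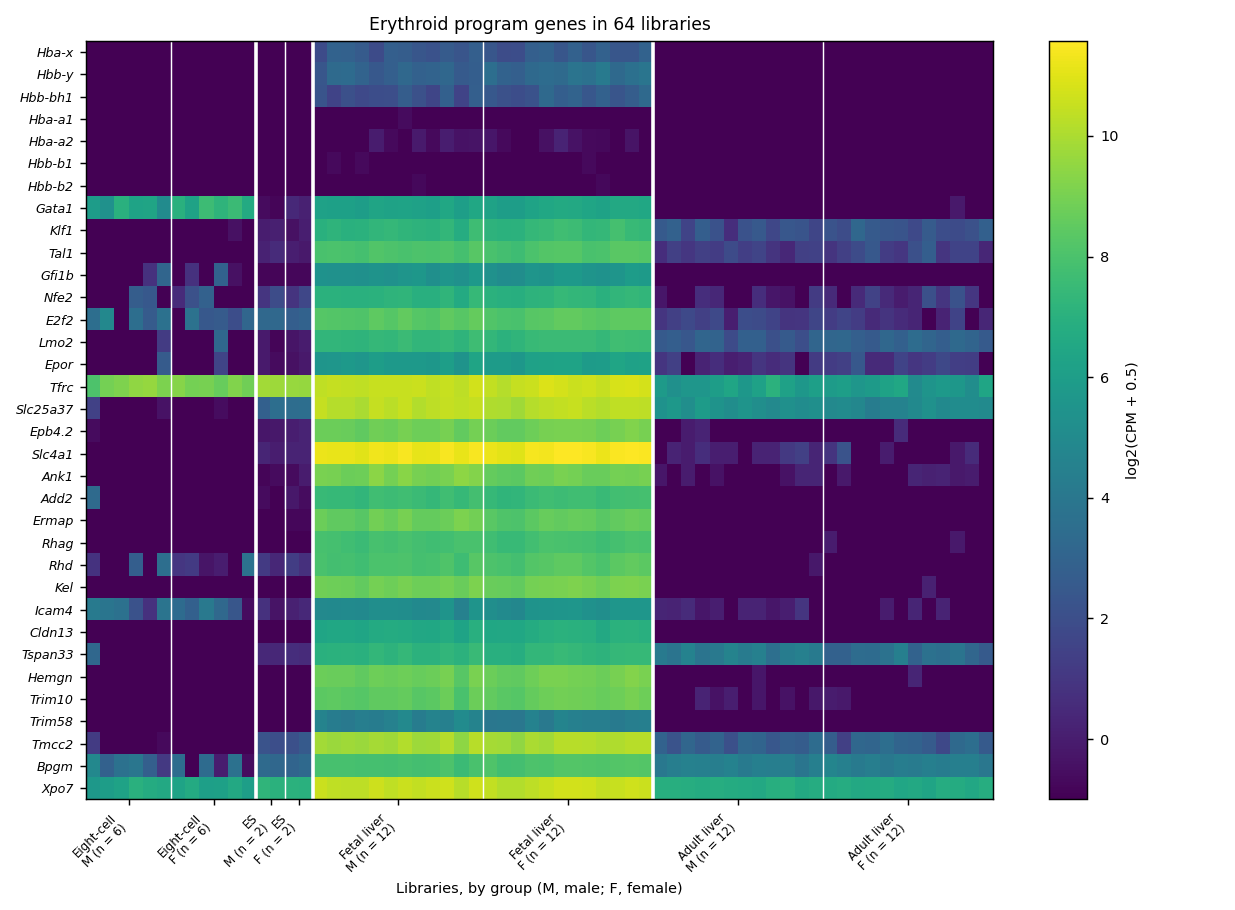
Level of the 34 erythroid program genes in each of the 64 libraries, as log2(CPM + 0.5), with libraries in columns by stage and sex (M, male; F, female) and genes in rows. The 24 fetal livers form a bright block over 30 genes, the 4 adult globin members are dark throughout, and Gata1, Tfrc and Xpo7 are also bright in the 12 eight-cell embryos.

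The 3 embryonic globins were low but present in every fetal liver. Hbb-y (epsilon-like beta globin, chr7:103851749-103853216) ranged from 4.67 to 17.1 CPM (median 9.05), Hba-x from 3.13 to 7.34 CPM (median 5.16) and Hbb-bh1 (chr7:103841637-103843164) from 2.34 to 9.28 CPM (median 4.40). No read of any of them was counted in 24 adult livers, 4 ES lines or 12 embryos. Against a floor of 3 reads over the 24 adult livers together, fetal levels were at least 166-fold higher for Hbb-y, 95.3-fold for Hba-x and 88.1-fold for Hbb-bh1. Per kb of exon, the median fetal level of Hbb-y was 14.3 CPM per kb, that of Hbb-bh1 7.18 and that of Hba-x 6.44.

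The 7 transcription factors were all called higher in fetal than in adult liver, by 4.57 on the log2 scale for Lmo2 and by more for the others. Tal1, a master regulator of blood cell formation, was at 206 to 333 CPM in fetal livers (median 262) and 0.758 to 6.16 CPM in adult livers (log2 ratio 6.83 ± 0.10 SE). E2f2, which drives genes of DNA replication, was at 252 to 388 CPM in fetal livers and 0 to 3.38 CPM in adult livers (7.39 ± 0.10). Each of these pairs of ranges was separated by a wide gap. Lmo2, the bridge of the TAL1 and GATA1 complex, was at 136 to 208 CPM in fetal livers and 3.21 to 10.3 CPM in adult livers. Klf1, the activator of adult beta globin, was at 111 to 232 CPM and 1.07 to 8.71 CPM. Nfe2, which acts at globin enhancers and in platelet formation, was at 103 to 171 CPM and 0 to 4.0 CPM. Klf1, Lmo2 and Tal1 thus kept reads in all 24 adult livers. Gata1, on chromosome X (chrX:7959260-7978071), was at 63.8 to 97.7 CPM in fetal livers (median 77.0) and had 1 read in the 24 adult livers together, a ratio of 4209 with a 95% counting interval of 755 to 166243. Gfi1b, a repressor needed for red cells and platelets, was at 34.1 to 60.7 CPM in fetal livers and had no read in adult livers, which makes it at least 798-fold higher.

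Among the genes for signals and iron, Tfrc, the transferrin receptor that brings iron into cells, was at 1141 to 1906 CPM in fetal livers (median 1475) and 32.4 to 134 CPM in adult livers (log2 ratio 4.49 ± 0.11 SE). Slc25a37 (mitoferrin-1), which carries iron into mitochondria, was at 886 to 1467 CPM and 19 to 58.4 CPM. Epor, the erythropoietin receptor, was at 44.2 to 84.1 CPM and 0 to 5.04 CPM. Tfrc and Slc25a37 had reads in every adult liver and Epor in 21 of 24. On the scale of level per kb of exon in fetal liver, Slc25a37 and Tfrc (medians 304 and 284 CPM per kb) came next after Slc4a1 among the tested members. Their ranges over livers overlapped.

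The membrane skeleton genes showed some of the largest differences. Slc4a1 (band 3) is the anion exchanger of the red cell membrane. It had the highest fetal level of the tested members, at 1985 to 3056 CPM (median 2471). The adult globin members, whose counts cannot be read as levels, are outside this ranking. In adult livers Slc4a1 was at 0 to 4.18 CPM, and 15 of 24 had a read. Its fetal level per kb of exon, 437 to 672 CPM per kb (median 544), lay above the range of every other tested member. Ank1 (ankyrin), which ties band 3 to spectrin, was at 344 to 698 CPM in fetal livers and 0 to 0.736 CPM in adult livers. Epb4.2 (protein 4.2) was at 361 to 592 CPM and had 5 reads in adult livers. Add2 (beta adducin) was at 151 to 231 CPM and had none, so that it was at least 3399-fold higher. Beta spectrin, listed as Spnb1, was at 606 to 1107 CPM in fetal livers and 0.717 to 6.63 CPM in adult livers (log2 ratio 8.23).

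All 7 blood group and surface genes were called higher in fetal liver, the lowest log2 ratio being 3.25. Kel, the Kell blood group protease, was at 371 to 557 CPM in fetal livers and had 1 read over the adult livers. Rhd, at 205 to 371 CPM, also had 1 adult read, and Rhag, its partner in the Rhesus complex at 176 to 258 CPM, had 2. For these the ratio of fetal to adult level was 25207 for Kel (95% counting interval 4524 to 995622), 14683 for Rhd (2635 to 579943) and 6025 for Rhag (1668 to 49756). Ermap, the Scianna blood group protein, was at 265 to 539 CPM and Cldn13, a claudin found in mice, at 77.7 to 136 CPM in fetal livers, and neither had an adult read, giving at least 6901-fold and 1850-fold. The smallest difference of the list was that of Tspan33, a tetraspanin of erythroid progenitors, at 113 to 182 CPM in fetal livers and 5.31 to 24.1 CPM in adult livers. Icam4, a blood group antigen that binds integrins, was at 22.6 to 48.9 CPM and 0 to 1.43 CPM.

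The remaining 6 members act in maturation or have other roles. Tmcc2 was at 695 to 1217 CPM in fetal livers and 2.09 to 11.2 CPM in adult livers. Hemgn (hemogen), a nuclear protein of blood progenitors, was at 322 to 616 CPM and had 2 adult reads, a ratio of 12010 (95% counting interval 3325 to 99174). Trim10, a tripartite motif protein of erythroid cells, was at 249 to 510 CPM with 9 adult reads. Trim58, a ubiquitin ligase linked to loss of the nucleus, was at 15.1 to 33.4 CPM with none, at least 373-fold higher. Bpgm, the enzyme that makes 2,3-bisphosphoglycerate, was at 187 to 311 CPM in fetal livers and 14.3 to 25.7 CPM in adult livers. Xpo7, a nuclear transport receptor, was at 1120 to 1685 CPM and 81.3 to 125 CPM. Bpgm (log2 ratio 3.56), Xpo7 (3.67) and Tspan33 had the smallest ratios of the 30, and all 3 were read in every adult liver.

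**Figure D2:**
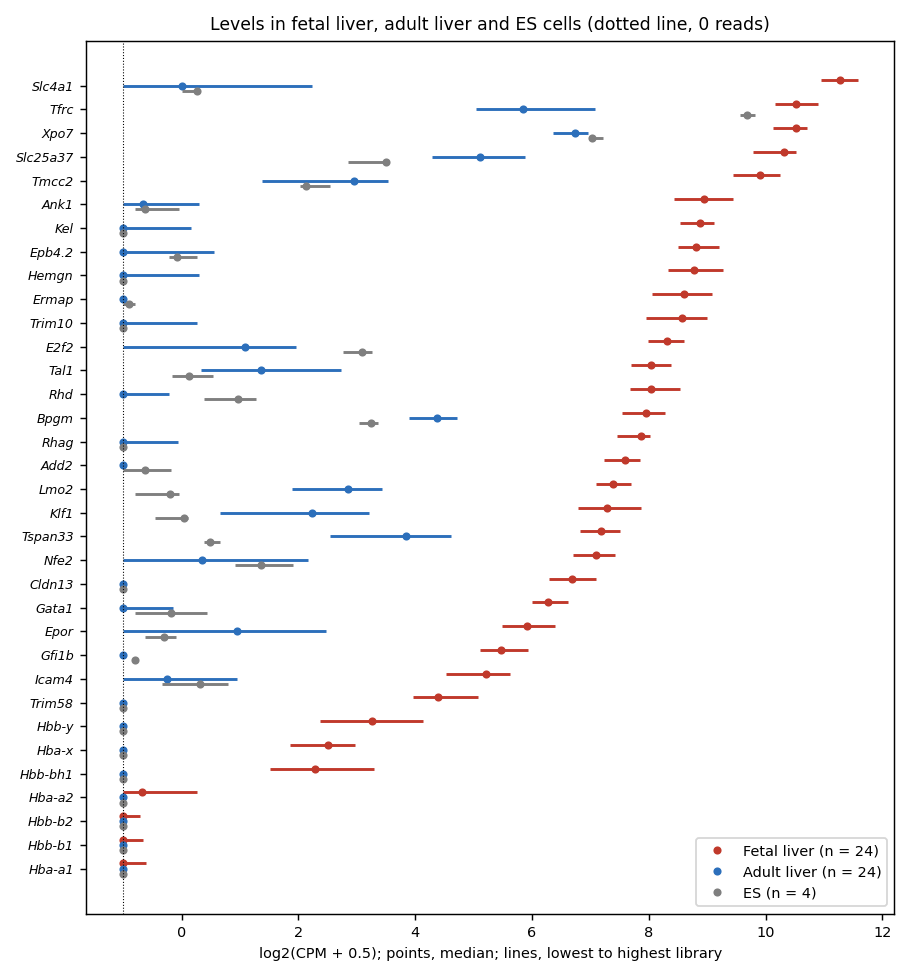
Median (point) and lowest to highest library (line) of each member in 24 fetal livers, 24 adult livers and 4 ES lines, as log2(CPM + 0.5), with genes ordered by their fetal median; the dotted line marks 0 reads. The fetal ranges lie to the right of the others for 30 genes, and Tfrc is the member whose fetal and ES levels are closest.

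Other genes of the pathway, from a list of 33 that the members do not include, gave a wider mix of values. Between fetal and adult liver 29 of the 33 were called higher in fetal liver and 1 lower, beside 3034 and 2512 of all 12875 genes tested. The median log2 ratio of the 33 was 2.31. Spna1 (alpha spectrin, log2 ratio 10.37) was close to absent from adult liver, like the membrane members. All 8 genes of heme synthesis, a pathway that hepatocytes also run, were higher at an adjusted p under 0.05. They ranged from Alad (0.51, under the fold threshold) to Alas2 (3.56). In either direction, 89.6% of all genes tested passed this p. The Alas2 ratio was 2.25 within male and 5.23 within female livers. Tfr2, the second transferrin receptor, was lower in fetal liver by 2.38 on the log2 scale, and the water channel Aqp1 (-0.16) and the pyruvate kinase gene Pklr (-0.12, adjusted p = 0.28, edgeR) stayed under the fold threshold. The theta-like globins Hbq1a and Hbq1b were called higher as well, while Hbb-bh2 had 7 reads in fetal livers and was not tested.

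ES lines, which are pluripotent, expressed few members. Against the 4 lines, 29 of the 30 tested members were called higher in fetal liver, beside 32.4% of the 14333 genes tested, and the median log2 ratio was 8.53, or 8.02 with 9 members without an ES read at their bound. The 9 members without an ES read entered this test through their fetal reads alone. Others had few ES reads, such as Ermap with 2 and Gfi1b with 4 over the 4 lines. In ES lines 26 of 34 members, with the 4 untested adult globins among them, had a median under 1 CPM. Members at such levels could hardly have been called lower, so the count of 29 is not independent support. The median of all genes tested was 0.03. Tfrc was the exception, at 902 and 855 CPM in the male lines and 783 and 759 CPM in the female lines. These levels lay below all 24 fetal livers, and the log2 ratio of 0.76 passed the adjusted p (1.64e-08, edgeR) but not the fold threshold. Xpo7 was at 149, 130, 130 and 126 CPM, and E2f2, Bpgm and Slc25a37 at 6.31 to 11.1 CPM. No globin member had a read, nor did Beta-s, and Kel, Rhag, Cldn13, Hemgn, Trim10 and Trim58 were also at 0 in all 4 lines. Gata1 was at 0.0728 to 0.846 CPM, Klf1 at 0.231 to 0.582 and Tal1 at 0.393 to 0.946. The fetal and adult values above and the fetal values here are the same libraries, so the 2 comparisons share them.

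In eight-cell embryos 17 of 34 members had no read in any of the 12 libraries, and 6 had a median of at least 5 CPM. Gata1 was the member that stood out. It was read in all 12 embryos, at 62.2, 41.3, 127, 77.2, 81.8 and 32.9 CPM in males and 124, 74.7, 196, 143, 192 and 102 CPM in females, from at least 245 reads in each. Its ranges in males and females overlapped, with the 3 lowest embryos male and the 3 highest female. The other factors were lower in the same libraries. Klf1 had 2 reads in 1 embryo and Tal1 none, while Lmo2 was read in 2 embryos, Gfi1b in 5 and Nfe2 in 5, at up to 8.57, 8.19 and 7.02 CPM, and E2f2 in 10. Tfrc was at 267 to 773 CPM (median 532) and Xpo7 at 51.0 to 128 CPM (median 76.8), with reads in all embryos. Icam4, Bpgm and E2f2 were lower and uneven, with medians of 9.52, 8.48 and 7.11 CPM, and Bpgm and E2f2 were at 0 in 1 and 2 embryos. Male and female embryos were compared for these 6 genes on log2(CPM + 0.5) with two-sided exact permutation tests. Gata1 was lower in males by 1.03 on the log2 scale (exact p = 0.0238), which did not pass adjustment over the 6 tests (adjusted p = 0.143, exact permutation test). For the other genes the difference of male and female means ranged from 0.05 (Tfrc) to 1.72 (Bpgm), with exact permutation p from 0.128 to 0.861. The study told male from female embryos by the expression of sex-linked genes, and litters were not given per embryo.

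**Figure D3:**
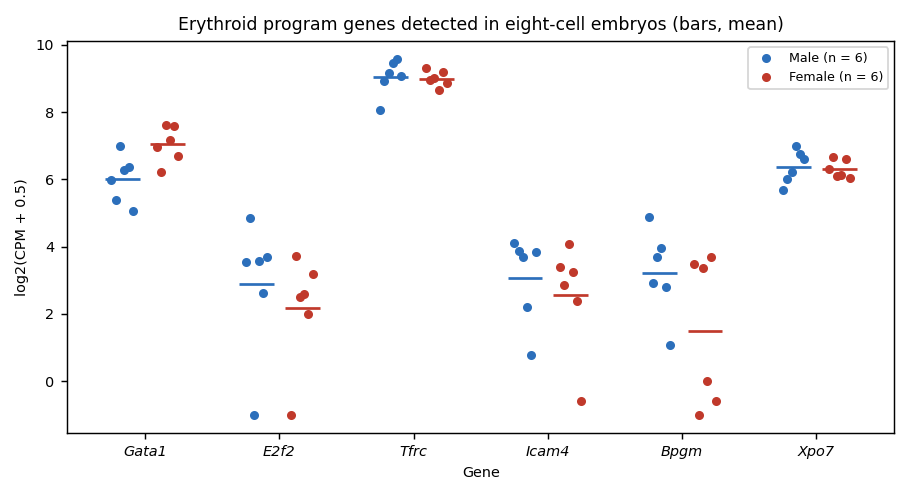
Level of the 6 members with a median of at least 5 CPM in eight-cell embryos, as log2(CPM + 0.5), with a point for each of 6 male and 6 female embryos and bars at the means. Gata1 lies higher on average in females with overlapping ranges, and Tfrc and Xpo7 vary least.

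The fetal livers differed among themselves, and most members moved together. Within each sex the median coefficient of variation of the 30 members was 12.5% in males and 14.6% in females, near the 11.7% and 11.8% of all 12930 genes tested. Across the 24 livers, with each sex's mean removed, the median correlation between pairs of members was 0.77, and between pairs of all genes tested 0.01. The libraries of a pair are the same, so these correlations are across shared livers and describe these samples only. Gata1 (median correlation with the other members 0.87), Rhd (0.87) and Cldn13 (0.86) followed the rest most closely, while Hbb-y (0.29), Trim58 (0.32) and Hba-x (0.32) did so least. The embryonic globins were also the most variable members, with coefficients of variation of 26.2% (Hba-x), 34.2% (Hbb-y) and 40.3% (Hbb-bh1) over all 24 livers, and their counts were low. Hba-x and Hbb-y correlated at 0.75 with each other, Hba-x and Hbb-bh1 at 0.46, and Hbb-y and Hbb-bh1 at 0.41.

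In female livers 14 and 15, 0 of 30 members lay above the female mean, with median deviations of -0.34 and -0.38 on the log2 scale. At the other end 29 of 30 members lay above their sex's mean in male livers 7 and 12 and in female livers 19, 23 and 24, with median deviations of 0.15 to 0.28. Over all genes tested, the median deviation of these 7 livers stayed between -0.05 and 0.03. In female livers 14 and 15 only 1 of the 33 other erythroid genes was above the female mean and 0 of 6 proliferation genes, with 3663 and 4123 CPM for the summed proliferation list against 4429 to 5666 in the other 10 females. The hepatocyte list had 2 and 5 of 12 genes above the mean, the neutrophil list 0 and 7 of 10, and the B cell list 0 and 8 of 8. The macrophage list had 0 and 2 of 9, with sums of 689 and 766 CPM against 796 to 949 in the other 10 females. Whether the livers differed in age, blood content or dissection was not tested. Without livers 14 and 15, all 30 members were still called higher in fetal than in adult liver.

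**Figure D4:**
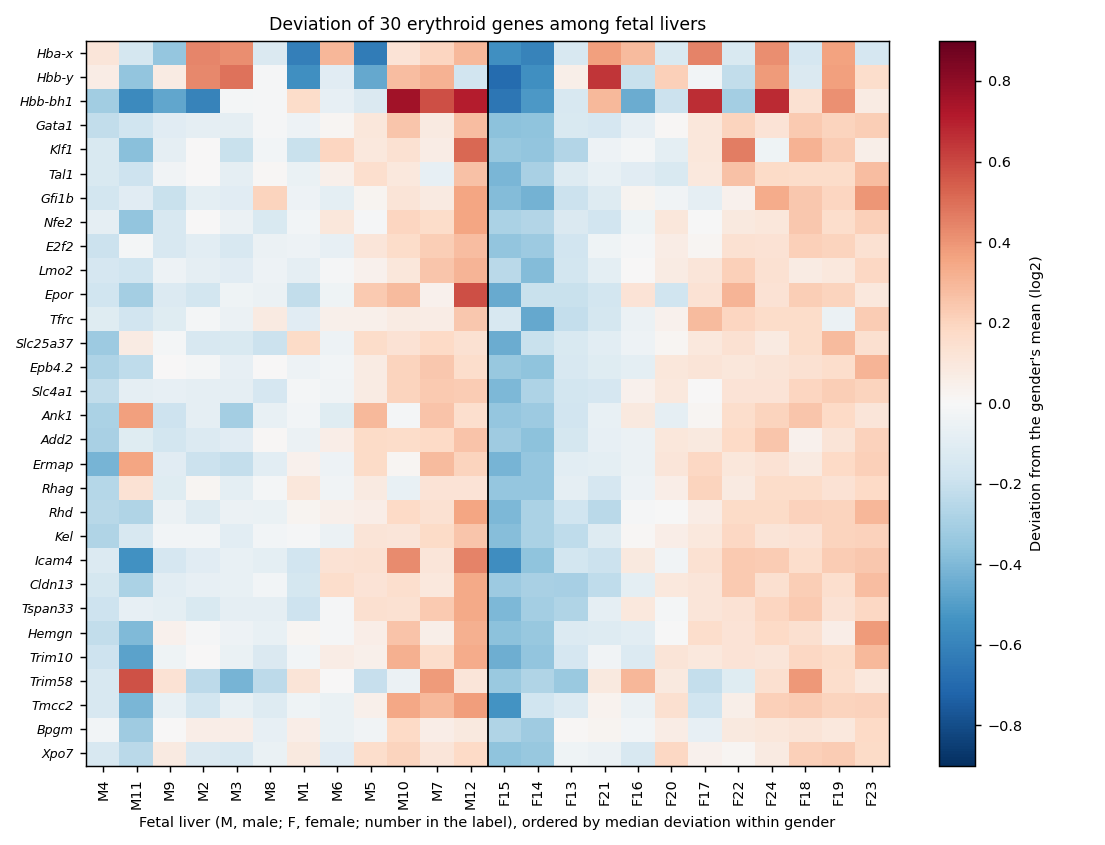
Deviation of 30 members (rows) from the mean of their sex in 24 fetal livers (columns; M, male; F, female; number from the label), on the log2 scale, with livers ordered by median deviation within each sex. Female livers 14 and 15 are blue for every gene, and the 3 embryonic globins at the top vary most, Hba-x and Hbb-y without following the order of the rest.

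Between male and female fetal livers few members differed. Of 30 tested, 2 were called (adjusted p under 0.1 and a log2 ratio of male to female beyond 0.5), both higher in females, beside 4.64% of 12930 genes called in either direction (3.81% higher in males and 0.828% higher in females). Both were embryonic beta globins. Hbb-y was at 4.67 to 10.2 CPM in males (median 7.24) and 6.47 to 17.1 CPM in females (median 10.9), a log2 ratio of -0.58 ± 0.14 SE (adjusted p = 0.00313, edgeR). Hbb-bh1 was at 2.34 to 6.81 CPM in males (median 3.69) and 3.41 to 9.28 CPM in females (median 5.50), a log2 ratio of -0.53 ± 0.20 SE (adjusted p = 0.0456, edgeR). Male and female ranges overlapped for both, as they did for each of the 30 members, while 1.83% of all genes tested had none. Hba-x, the embryonic alpha globin, was at 3.13 to 7.15 CPM in males and 3.28 to 7.34 CPM in females, with a log2 ratio of 0.00 ± 0.15 SE, and Beta-s had a ratio of -0.10. Female livers also had the larger share of counted reads on genes, 61.2% to 65.0% against 50.4% to 59.3% in males with no overlap, and with this share as a covariate 0 of 30 members were called by edgeR (1 at an unadjusted p under 0.05). The Hbb-y ratio was then -0.06 and that of Hbb-bh1 0.25, and 7 genes of all were called in place of 600. Sex and share cannot be told apart here. Without male liver 11, which had the lowest share, 1 member (Hbb-y, -0.55) was called and Hbb-bh1 was at -0.48.

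**Figure D5:**
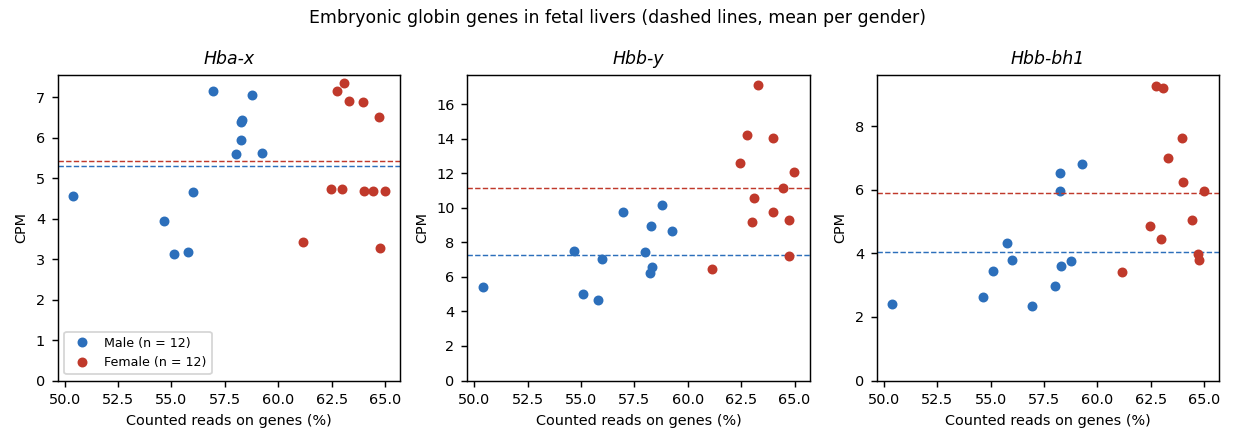
CPM of the 3 embryonic globins in 12 male and 12 female fetal livers against the percent of counted reads that fell on genes, with dashed lines at the mean of each sex. The male and female livers do not overlap along the horizontal axis, and the means differ for Hbb-y and Hbb-bh1 but not visibly for Hba-x.

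Smaller differences passed the adjusted p alone for 11 of 30 members, beside 37.2% of all genes tested, so that their number did not stand out. Of the 11, 3 were higher in males and 8 in females, beside 2287 and 2520 of all 12930 genes tested. Those higher in males were Ank1 (log2 ratio 0.34, at 438 to 698 CPM in males and 344 to 523 CPM in females), Ermap (0.29) and Trim58 (0.26). Beside both globins, those higher in females were Icam4 (-0.28), Epor (-0.27), Rhd (-0.26), Trim10 (-0.23), Cldn13 (-0.21) and Bpgm (-0.20). The 7 transcription factors lay between -0.20 (Klf1) and 0.02 (E2f2), and none passed. Among the other erythroid genes 16 of 33 passed the adjusted p alone, 4 toward males and 12 toward females, and 1 was called. This was Bcl11a, a repressor of embryonic globin genes, at a log2 ratio of 0.59 (adjusted p = 3.81e-06, edgeR), or 0.26 with the share of reads on genes as a covariate (adjusted p = 0.904). Of the marker lists, 4 of 9 macrophage genes and 3 of 6 proliferation genes passed the adjusted p toward females. Toward males 3 of 8 B cell, 2 of 8 megakaryocyte, 2 of 10 neutrophil, 2 of 6 endothelial and 1 of 12 hepatocyte genes did. Of all 12930 genes tested, 2520 passed toward females and 2287 toward males. With the share of reads on genes as a covariate, none of the 11 members passed and 8 of them changed sign.

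In adult liver only 7 members had enough reads to be tested between males and females, and 1 was called, beside 9.49% of 10372 genes (3.01% higher and 6.48% lower in males). Tspan33 was at 11.5 to 24.1 CPM in males (median 17.7) and 5.31 to 20.9 CPM in females (median 10.2), a log2 ratio of 0.72 ± 0.17 SE (adjusted p = 0.00162, edgeR). Slc25a37 was at 29.9 to 58.4 CPM in males and 19 to 40.1 CPM in females, with a ratio of 0.43 (adjusted p = 0.00452, edgeR) that did not reach the fold threshold. Lmo2 (-0.40, adjusted p = 0.0525, edgeR) and Xpo7 (0.13, 0.0943) passed the adjusted p only, which 32.8% of all genes did, and Tfrc, Tmcc2 and Bpgm did not. The ranges of the sexes overlapped for Tspan33 and Slc25a37. The macrophage list was lower in males for 9 of 9 genes at the adjusted p, and the endothelial list for 6 of 6. Of 11 tested hepatocyte genes 4 were lower and 1 higher, and of 4 tested proliferation genes 2 were lower and 1 higher. Of all 10372 genes tested, 1837 were lower and 1563 higher in males at this p.

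Whether the difference between males and females depended on stage was tested as an interaction over the 48 livers. At an adjusted p under 0.1, 6 of 30 members were called, beside 33.7% of 13026 genes, and all 6 were among the 22 members with a read in adult liver. Nfe2 had a positive interaction (1.21), from a log2 ratio of -0.09 in fetal liver and fewer reads in adult males (17) than in adult females (34). The other 5 were negative, Icam4 (-2.18, 16 adult male and 3 adult female reads), Tspan33 (-0.79), E2f2 (-0.78, 66 and 30 reads), Slc25a37 (-0.36) and Bpgm (-0.23). Nfe2, Icam4 and E2f2 passed the filter on low counts through fetal liver, and their adult side rested on 51, 19 and 96 reads in all. Without the 7 adult livers under 2000000 reads, 3 of the 6 were called (Icam4, Slc25a37 and Tspan33), and with the share of reads on genes as a covariate 3 were (Nfe2, Slc25a37 and Tspan33). For the 8 members without any adult read the interaction holds no information.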

How the data were processed

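The authors deposited raw counts per gene for each of the 64 libraries: reads aligned to mm10 with TopHat2 2.0.4, Bowtie2 2.1.0 and SAMtools 0.1.18, duplicates removed with Picard, and reads assigned by HTSeq, without normalization. Removal of duplicates can lower the counts of the most abundant genes, and its effect was not tested. Rows naming no gene (10.8% to 49.6% of uniquely aligned reads) were left out of library sizes. Members and lists were chosen with earlier results of these data known. Counts were tested with edgeR 4.0.16 in R 4.3.3 (TMM, filterByExpr, robust two-sided quasi-likelihood F test, Benjamini-Hochberg adjustment over all genes tested), with sex as a covariate of stage. Standard errors are the log2 ratio over the square root of F. All members found were named, with every gene of the other erythroid and globin lists open to naming and marker lists given by counts. DESeq2 1.42.0 and other settings were alternatives. The scripts were tested on simulated data. Groups came from the labels. The labels do not say which livers shared a litter, and each liver was fitted as independent. The p-values measure the spread between these samples, and would be too small if littermates resembled each other. Floors and intervals cover counting error only. Exact tests used scipy 1.17.1. Coordinates are from GENCODE on GRCm38.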

Additional observations from a re-analysis of the deposited data

Results flagged for a closer look

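For 6 of 30 members the male to female difference in fetal liver differed from that in adult liver by the test of the interaction (edgeR, adjusted p under 0.1 over all genes tested), beside 33.7% of all genes. As the log2 ratio of male to female in fetal liver minus that in adult liver, it was 1.21 for Nfe2, -2.18 for Icam4, -0.79 for Tspan33, -0.78 for E2f2, -0.36 for Slc25a37 and -0.23 for Bpgm. Tspan33 and Slc25a37 also passed without adult livers under 2000000 reads and with the share of reads on genes as a covariate. Nfe2 passed with the covariate but not without those livers, and Icam4 the other way round. E2f2 and Bpgm passed under neither. The adult side of Nfe2, Icam4 and E2f2 rested on 51, 19 and 96 reads, too few for a test between adult males and females. In the embryos, 12 groups of 6 values were searched for a sample far from the others and none was found, where chance would mark about 1 group in 20.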

How the results depend on the processing

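The 30 members were called higher in fetal than in adult liver under all 11 alternatives in which they were counted, 31 without the filter on low counts, where Hba-a2, with 33 fetal reads, was tested too. Against ES lines 29 or 30 were called, 29 when each line was left out, and Tfrc passed the fold threshold with the share of reads on genes as a covariate (log2 ratio 1.08). The median of all genes in the fetal to adult comparison moved from 0.05 to 0.14 with DESeq2 size factors and to 0.25 without the filter. Between male and female fetal livers, the covariate left 0 members and 7 genes called, and it turned the sign of Bpgm (0.10), Cldn13 (0.085), Epor (0.12), Hbb-bh1 (0.25), Icam4 (0.30), Rhd (0.057), Trim10 (0.22), Trim58 (-0.019) and Beta-s (0.38). Without male liver 11, 1 member was called. Hba-x was at -0.11 without female livers 14 and 15 (2 members called). Both settings were chosen after seeing the data. Without the filter 1057 genes of all were called in fetal livers, 61.0% of them higher in males in place of 82.2%, and 1518 in adult livers. In adult liver 4 members were called with DESeq2 and 4 without the filter (Tspan33, Icam4, Epor and Nfe2). For the interaction, 3 members were called with the covariate, where 2426 genes of all remained called, and 3 without adult livers under 2000000 reads. The cause of these changes was not tested.

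Same-numbered fetal and adult livers correlated at -0.09 to 0.05 in their deviations, so they share only a number. With the number as a replicate block 30 members were called, and 3503 genes of all were higher and 2709 lower in place of 3034 and 2512. Adult depth limits the tests of members at 0 to 9 CPM.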

Other observations

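Among erythroid genes outside the members, Alas2, the first enzyme of heme synthesis in red cells, separated adult livers by sex. It was at 184 to 242 CPM in 12 males (median 208) and 13.3 to 50.6 CPM in 12 females (median 30.9), without overlap, a log2 ratio of 2.79, while the fetal ratio was -0.15 and the interaction -2.99 (adjusted p = 7.81e-25, edgeR). Abcb10, a mitochondrial transporter that works with mitoferrin-1, was also higher in adult males (79.8 to 112 CPM against 41.1 to 64 CPM in females, log2 ratio 0.88). Car2, a carbonic anhydrase, was lower in adult males, at 5.02 to 10.2 CPM against 8.10 to 19.7 CPM, a log2 ratio of -1.11. Of the 23 genes of this list tested in adult liver, these 3 were called, beside 9.49% of all genes tested there. Beta-s had a log2 ratio of -0.15 between adult males and females (adjusted p = 0.515, edgeR).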
